A study of Homo sapiens with 8 samples.

Results

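The accessible chromatin of untreated U2OS cells under an siRNA against Orc6 was compared, region by region, with that of untreated cells under the control siRNA siGl3. The assay, ATAC-seq, uses a transposase that enters open DNA and leaves sequencing adapters at its cuts. The regions were formed by joining overlapping peaks of the 2 untreated peak lists on chromosomes 1 to 22 and X. This gave 123830 regions, against 129052 when all 4 peak lists of the series were joined. In the first group, untreated siOrc6, U2OS cells (an established human osteosarcoma line) carried the Orc6 siRNA for 72 h, were arrested by a double thymidine block and were collected 3 h after release, in early S phase. The second group, untreated siGl3, differed by the siRNA alone and shared the line, the block and the release. Each group had 2 libraries, labelled batch 1 and batch 2, and the labels do not say that these came from separate cultures. The series also holds both siRNA groups after 5 mM H2O2 for 30 min, with 2 libraries each in the same 2 batches. Both libraries of a group stand behind 1 deposited peak list, as its name shows. The spread between libraries therefore cannot be given, no test between the groups was possible, and the depth behind each list is unknown. Nor do the labels give the share of cells in S phase, so a change of accessibility per cell and a change in the makeup of the population cannot be told apart.

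Orc6 belongs to the origin recognition complex, of which it is the smallest member. The complex binds replication origins and, with CDC6 and CDT1, loads the MCM helicase on them before S phase. In human cells origins have no fixed sequence and often lie in open chromatin near gene starts, many of which are CpG islands, stretches of DNA rich in CG dinucleotides. Open chromatin is DNA that nucleosomes leave free, and remodelling complexes of the ISWI, SWI/SNF, CHD and INO80 families move or evict nucleosomes to set its extent.

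Promoters in regions that were stronger or listed only in siOrc6 were richer in CG dinucleotides than promoters in regions that were stronger or listed only in siGl3. The promoter windows below show this contrast. They run from 250 bases before to 50 bases after an annotated start in RefSeq (assembly GRCh38.p14), are printed 5′ to 3′ along the gene and have each CG dinucleotide in capitals. They were taken as the first 2 genes with such a window in each of 4 kinds of region, ordered by strength or by shift.
LDLRAD4, chr18:13217965-13218264, plus strand, in a region listed only in siOrc6: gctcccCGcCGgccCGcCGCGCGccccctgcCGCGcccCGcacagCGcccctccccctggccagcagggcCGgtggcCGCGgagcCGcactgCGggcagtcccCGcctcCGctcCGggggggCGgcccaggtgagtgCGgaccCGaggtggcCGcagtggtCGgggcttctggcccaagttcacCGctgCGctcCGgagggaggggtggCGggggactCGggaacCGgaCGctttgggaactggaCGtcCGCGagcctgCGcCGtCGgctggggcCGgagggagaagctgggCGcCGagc
PIP4K2A, chr10:22714059-22714358, minus strand, in a region listed only in siOrc6: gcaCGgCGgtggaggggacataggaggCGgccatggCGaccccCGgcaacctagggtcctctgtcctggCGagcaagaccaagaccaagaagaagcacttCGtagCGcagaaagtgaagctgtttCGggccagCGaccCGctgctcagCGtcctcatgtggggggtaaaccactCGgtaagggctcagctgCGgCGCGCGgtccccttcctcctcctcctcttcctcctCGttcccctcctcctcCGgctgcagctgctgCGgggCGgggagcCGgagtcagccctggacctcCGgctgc
CMKLR2, chr2:206213322-206213621, minus strand, in a shared region stronger in siOrc6: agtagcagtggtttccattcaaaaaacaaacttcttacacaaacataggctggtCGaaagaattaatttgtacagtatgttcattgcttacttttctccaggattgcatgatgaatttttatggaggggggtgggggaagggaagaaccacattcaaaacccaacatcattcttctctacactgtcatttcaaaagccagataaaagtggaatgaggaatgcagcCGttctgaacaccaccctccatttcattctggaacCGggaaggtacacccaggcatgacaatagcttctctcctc
ZNF385B, chr2:179861563-179861862, minus strand, in a shared region stronger in siOrc6: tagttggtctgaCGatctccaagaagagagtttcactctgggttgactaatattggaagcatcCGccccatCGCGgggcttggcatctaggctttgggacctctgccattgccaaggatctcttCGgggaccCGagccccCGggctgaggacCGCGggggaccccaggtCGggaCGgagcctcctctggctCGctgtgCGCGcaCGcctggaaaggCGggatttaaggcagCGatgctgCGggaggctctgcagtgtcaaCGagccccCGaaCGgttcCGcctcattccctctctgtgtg
CORO2B, chr15:68641253-68641552, plus strand, in a region listed only in siGl3: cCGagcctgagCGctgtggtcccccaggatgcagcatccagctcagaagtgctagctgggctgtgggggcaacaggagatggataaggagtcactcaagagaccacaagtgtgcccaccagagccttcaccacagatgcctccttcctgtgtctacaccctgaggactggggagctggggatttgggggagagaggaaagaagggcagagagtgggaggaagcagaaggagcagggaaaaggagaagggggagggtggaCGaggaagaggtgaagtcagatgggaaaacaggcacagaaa
SLC4A3, chr2:219630807-219631106, plus strand, in a region listed only in siGl3: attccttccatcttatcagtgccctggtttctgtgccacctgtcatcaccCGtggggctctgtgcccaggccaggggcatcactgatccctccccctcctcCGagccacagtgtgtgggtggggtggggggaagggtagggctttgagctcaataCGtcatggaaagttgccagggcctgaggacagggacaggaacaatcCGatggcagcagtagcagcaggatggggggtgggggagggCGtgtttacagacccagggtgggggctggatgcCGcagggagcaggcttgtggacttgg
ENTPD1, chr10:95741784-95742083, plus strand, in a shared region weaker in siOrc6: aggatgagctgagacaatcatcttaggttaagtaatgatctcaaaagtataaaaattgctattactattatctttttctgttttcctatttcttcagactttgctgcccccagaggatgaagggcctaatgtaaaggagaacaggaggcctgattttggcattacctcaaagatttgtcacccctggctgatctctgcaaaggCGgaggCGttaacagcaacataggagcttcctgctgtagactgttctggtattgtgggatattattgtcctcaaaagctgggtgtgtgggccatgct
MRGPRX4, chr11:18172587-18172886, plus strand, in a shared region weaker in siOrc6: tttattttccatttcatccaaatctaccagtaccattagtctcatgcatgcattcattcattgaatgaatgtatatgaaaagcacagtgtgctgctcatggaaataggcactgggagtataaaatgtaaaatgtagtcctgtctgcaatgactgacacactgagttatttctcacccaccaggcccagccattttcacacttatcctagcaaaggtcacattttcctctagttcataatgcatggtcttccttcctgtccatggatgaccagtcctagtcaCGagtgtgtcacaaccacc
The LDLRAD4 window held 39 CG dinucleotides, the PIP4K2A window 23 and the ZNF385B window 22, while CMKLR2 was an exception on the siOrc6 side with 3. On the siGl3 side, CORO2B held 3, SLC4A3 6, ENTPD1 2 and MRGPRX4 1.

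Most accessible regions were found under both siRNAs, and the regions found under 1 siRNA were weak and narrow. The siOrc6 list held 109304 peaks over 70.6 Mb, with a median width of 485 bp, and the siGl3 list held 115292 peaks over 70.3 Mb, with a median width of 471 bp. Fewer but wider siOrc6 peaks thus covered nearly the same length: 2829 siOrc6 peaks (2.59%) were 2 kb or wider, against 2027 siGl3 peaks (1.76%). Of the 123830 regions, 11466 were listed in siOrc6 only (9.26%, 95% Wilson interval 9.10% to 9.42%) and 15871 in siGl3 only (12.8%, 12.6% to 13.004%). The other 96493 (77.9%) were in both lists. Intervals here and below treat regions as independent, which neighbours are not, and cover counting error only. The larger number of siGl3-only regions came with the longer siGl3 list. With the 100000 strongest peaks of each list, 12271 regions were in siOrc6 only and 11121 in siGl3 only.

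Strength was read as a percentile: the share of a list's own peaks whose signal, in the seventh column of the list, was at or below that of the region's best peak. The signal is the authors' value for a peak and was used only to rank peaks within a list. siOrc6-only regions had a median percentile of 11.6 and a median width of 245 bp, and siGl3-only regions a median percentile of 13.9 and a median width of 281 bp. Shared regions had median percentiles of 55.6 in siOrc6 and 57.5 in siGl3 and a median width of 601 bp. Among regions up to the 10th percentile of each list, 47.7% of siOrc6 regions and 55.1% of siGl3 regions were missing from the other list. That share fell steadily with strength and was 0 above the 90th percentile of either list. Only 135 siOrc6-only and 351 siGl3-only regions reached the 50th percentile of their list. Some lay beside a peak of the other list: 18.9% of siOrc6-only regions were within 500 bp of a siGl3 peak, and 10.4% of siGl3-only regions within 500 bp of a siOrc6 peak.

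**Figure D1:**
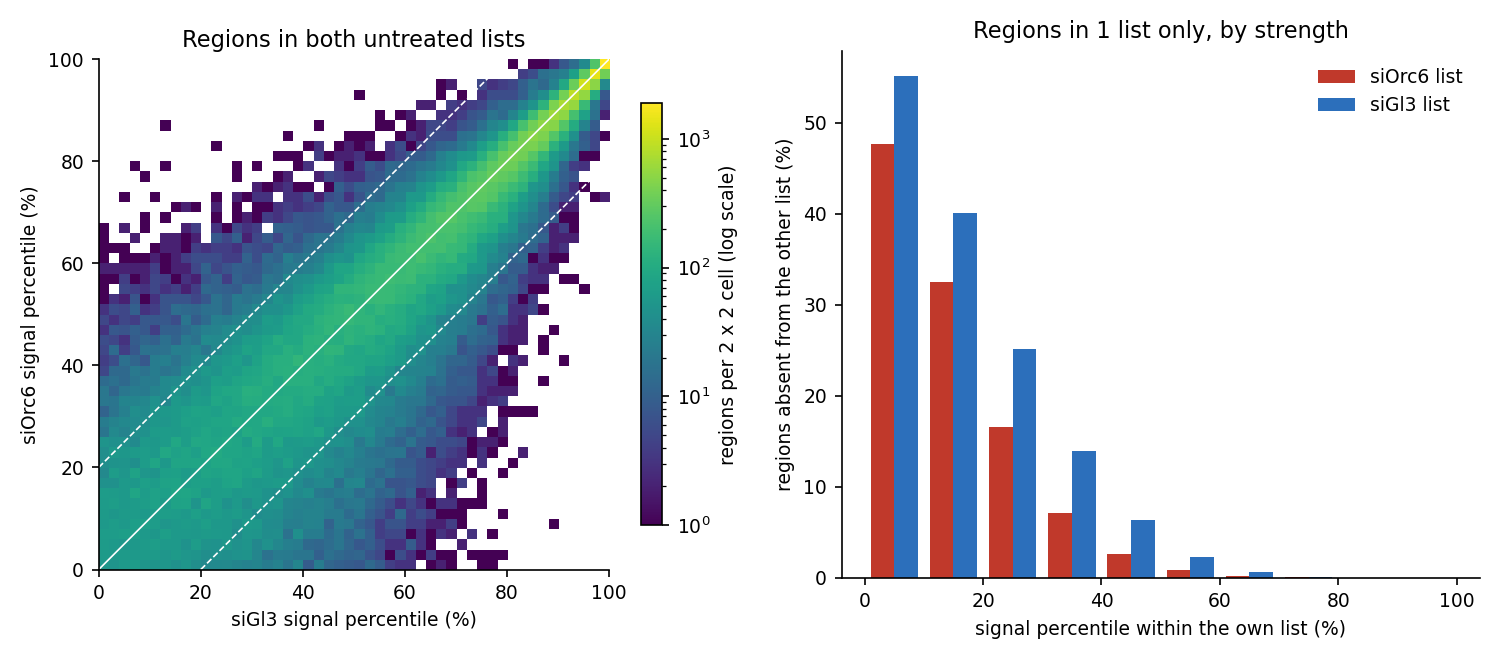
Left, signal percentile of the 96493 shared regions in the siOrc6 list (vertical) and the siGl3 list (horizontal), coloured by the number of regions per cell on a log scale, with equality drawn solid and differences of 20 points dashed. Right, percent of the regions of each list that the other list lacked, by signal percentile: siOrc6 (red) fell to 2.63% and siGl3 (blue) to 6.31% between the 40th and 50th percentiles.

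Shared regions kept much of their rank. The shift, the siOrc6 percentile minus the siGl3 percentile, had a median of −0.46 points with quartiles of −6.66 and 4.38, and 47.3% of shared regions shifted by less than 5 points. A shift of 20 points was used to call a region stronger or weaker. By that measure 3990 regions were stronger in siOrc6 (4.14% of 96493) and 6822 were weaker (7.07%). The shifts next to the limit were 20.0028 inside and 19.9996 outside on the higher side, and −20.0014 and −19.9999 on the lower side. Calls depended on the measure: ranked by signal per base, 8375 regions were higher and 12341 lower, and among peaks with a signal of at least 400, 3431 were higher and 4507 lower. With lists of equal length the balance turned, to 4934 stronger and 4691 weaker, and the median shift was 0.44. The sign of the median and the direction with more calls thus changed when the lists were cut to equal length. Differences between kinds of regions within the same lists, as below, do not rest on that sign. Which side of 0 a kind of region lay on, and counts of regions higher or lower, can depend on it.

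Gene starts stood apart from other regions. A region counted as at a gene start when it lay within 1 kb of an annotated start of a protein-coding gene. For 4162 of 19974 such genes the start was not known and both annotated ends were used, so some of these regions lie at the far end of a gene. Shared regions at gene starts (15189) had a median shift of 0.65 points, with 63.3% higher in siOrc6, while shared regions elsewhere (81304) had a median of −1.27, with 42.3% higher. At gene starts 646 regions were 20 or more points higher (4.25%) and 258 lower (1.70%). Elsewhere 3344 were higher (4.11%) and 6564 lower (8.07%). In the full lists the calls at gene starts thus leaned to siOrc6 and those elsewhere to siGl3. Over all strengths together, this difference lay in the lower calls more than in the higher ones. Strength was not matched in these counts: 8655 of the 15189 gene-start regions and 13259 of the 81304 others lay above the 80th percentile (mean of both lists). Between the 20th and 30th percentiles the upper quartile of the shift was 19.1 points at gene starts and 10.3 elsewhere. The median at gene starts exceeded that elsewhere under the reported ranking and all 7 alternatives, by between 1.34 and 3.67 points. With lists of equal length the medians were 1.35 at gene starts and 0.01 elsewhere.

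Regions found under 1 siRNA differed in the same way. Gene starts made up 9.20% of siOrc6-only regions (1055 of 11466, interval 8.69% to 9.74%) and 3.47% of siGl3-only regions (551 of 15871, interval 3.20% to 3.77%). Among all regions at gene starts, 6.28% were siOrc6-only and 3.28% siGl3-only. Elsewhere 9.73% were siOrc6-only and 14.3% siGl3-only. Shared regions were at gene starts in 15.7% of cases, but they were stronger, and strength goes with gene starts. Among regions of like strength, between the 20th and 30th percentiles, 10.7% of siOrc6-only, 2.50% of siGl3-only and 6.25% of shared regions were at gene starts. siOrc6-only regions held the most gene starts and siGl3-only regions the fewest in each of the 5 strength classes below the 60th percentile, where siOrc6-only shares ran between 7.77% and 12.5% and siGl3-only shares between 2.50% and 4.11%. With peaks joined up to 500 bp apart, so that neighbours of the other list's peaks no longer count, the gene-start shares were 4.79% of siOrc6-only and 2.79% of siGl3-only regions. Of siOrc6-only regions, 39.9% lay inside protein-coding genes away from their starts, near the 38.0% of shared regions, against 49.3% of siGl3-only regions.

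The shift at gene starts was largest for regions of middle strength. Between the 20th and 30th percentiles (mean of both lists) the median shift was 7.67 points at 622 gene-start regions and −1.67 points at 9328 other regions. Between the 30th and 40th percentiles it was 7.61 at gene starts and −1.96 elsewhere. Above the 80th percentile, where 8655 of the gene-start regions lay, it was 0.18 at gene starts and −0.94 elsewhere. Near the top of a list a percentile can move little, so the small overall median at gene starts is the median of regions that are mostly strong. The quartiles of the middle classes were wide, −6.48 and 19.1 for gene starts between the 20th and 30th percentiles, and many gene starts there were weaker in siOrc6.

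**Figure D2:**
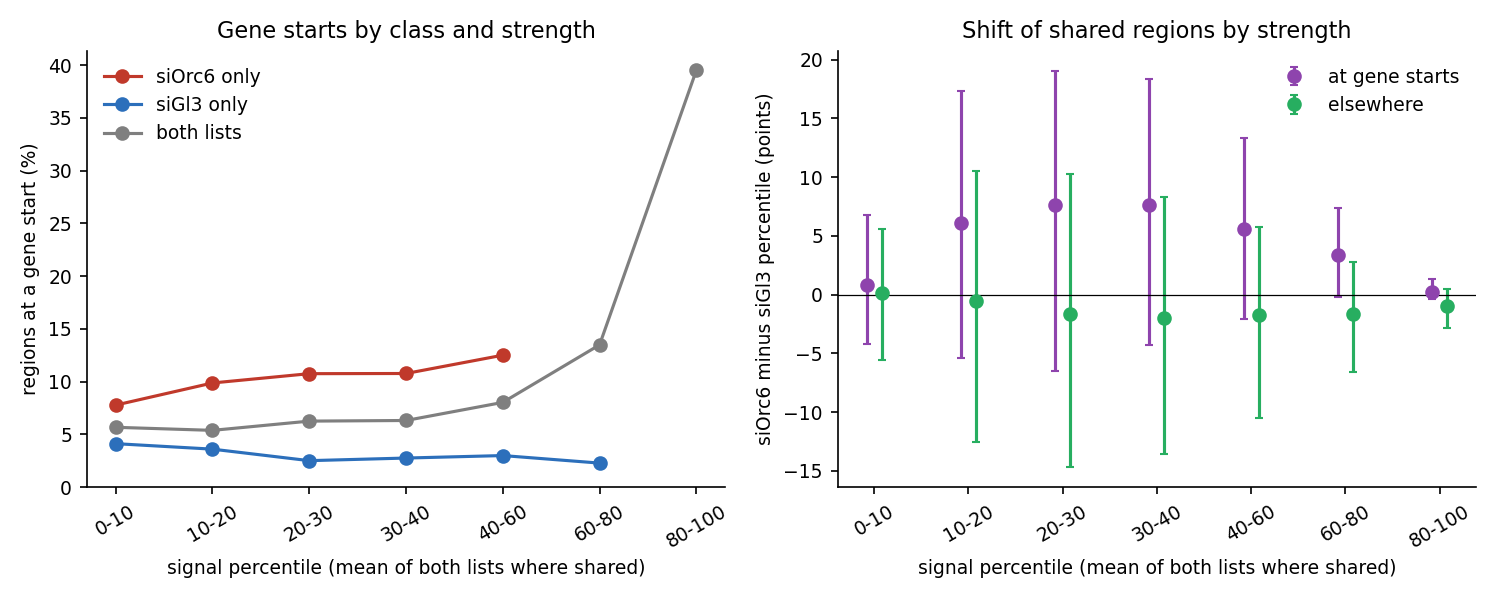
Left, percent of regions at a gene start by signal percentile, for regions listed in siOrc6 only (red), in siGl3 only (blue) and in both lists (grey); classes with under 50 regions are not drawn. Right, median siOrc6 minus siGl3 percentile of shared regions with quartiles as bars, at gene starts (purple) and elsewhere (green): the medians at gene starts are above 0 in every class, up to 7.67 points.

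Accessible regions at gene starts were wider in siOrc6, a measure that ran with the shift. The median ratio of covered bases, siOrc6 over siGl3, was 1.38 in shared regions 20 or more points higher. In those 20 or more points lower it was 0.74. Summed over shared regions at gene starts, siOrc6 peaks covered 18.9 Mb and siGl3 peaks 17.5 Mb, a ratio of 1.08, with a median ratio per region of 1.05. Elsewhere they covered 48.3 Mb and 47.6 Mb, a ratio of 1.01, with a median of 1.00. Of gene-start regions, 979 were at least 1.5 times as wide in siOrc6 (6.45%) and 294 were narrower by as much (1.94%). Elsewhere the shares were 7.21% and 7.02%. Where 1 peak of each list covered the annotated start of a gene (8462 starts, each siOrc6 peak counted once), the upstream edge lay a median of 12 bp farther out in siOrc6 and the downstream edge a median of 18 bp farther out. The upstream edge lay at least 50 bp farther out at 29.4% of starts and at least 50 bp closer at 7.11%. Downstream these shares were 34.3% and 6.996%. In the H2O2 lists the medians were 13 bp upstream and 18 bp downstream over 8847 starts. Neighbouring peaks fused more often in siOrc6: at gene starts, 7.22% of shared regions were 1 siOrc6 peak over 2 or more siGl3 peaks and 1.76% were the reverse. Elsewhere these were 1.88% and 1.11%. The highest points of paired peaks were a median of 10 bp apart over 92560 shared regions, and within 50 bp in 80.9% of them. Peak edges follow a caller's threshold and its depth, which is unknown here. Ranking by signal per base, which sets width aside, gave median shifts of 2.32 at gene starts and −1.35 elsewhere.

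Promoter sequence differed between the 2 directions. Among 22012 RefSeq promoter windows of 300 bases, as printed above, the median window held 21 CG dinucleotides. Each window was read by the strongest region that overlapped it. Windows in siOrc6-only regions (284) held a median of 26 and windows in shared regions 20 or more points higher in siOrc6 (363) a median of 28, close to the 26 of windows in shared regions within 20 points (12893). Windows in siGl3-only regions (132) held a median of 5 and those in shared regions 20 or more points lower in siOrc6 (69) a median of 5, close to the 6 of windows with no region (8271). At most 10 CG dinucleotides were present in 26.4% of siOrc6-only and 19.01% of stronger windows, against 75% of siGl3-only and 71.01% of weaker windows. The share was 10.7% in shared windows within 20 points, 64.3% in windows with no region and 31.8% among all windows. CG-poor windows were thus more frequent on the siOrc6 side than among shared windows within 20 points, despite similar medians. Strength was not matched here. Its median percentile was 16.9 for siOrc6-only, 44.03 for stronger, 10.97 for siGl3-only and 34.3 for weaker windows. For shared windows within 20 points it was 90.7. Median GC content was 68.5% and 69.0% on the siOrc6 side and 56.5% and 58.7% on the siGl3 side.

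Among shared regions of like strength the shift ran with CG content between the 20th and 80th percentiles. Between the 20th and 40th percentiles the median shift was 1.72 points for windows with at most 10 CG dinucleotides, 13.5 for those with 11 to 20 and 15.2 for those with 21 to 60. Between the 40th and 60th percentiles these medians were 2.93, 8.86 and 9.55, and between the 60th and 80th they were 1.81, 3.22 and 4.53. Above the 80th percentile all lay between 0.10 and 0.20. Below the 20th percentile, with 60, 38 and 50 windows, the medians were 4.68, 1.51 and 11.97, so the order did not hold there. The H2O2 shift could be read only for windows whose region was in both H2O2 lists. Below the 20th percentile these were 28 of 60, 28 of 38 and 47 of 50 windows, with medians of −4.09, 4.64 and 2.74. Between the 20th and 40th they were 135 of 192, 69 of 75 and 218 of 221, with medians of 0.23, 8.42 and 3.02. Between the 40th and 60th the medians were 1.62, 1.90 and 1.35. Between the 60th and 80th they were 1.19, 1.24 and 0.53, and above the 80th all lay between −0.08 and 0.02. With H2O2 the CG-poor windows were thus lowest in the 2 weakest classes and the CG-rich ones lowest in the 3 strongest. The untreated order therefore did not repeat among the windows that could be read with H2O2, and CG-poor windows were lost most often in the 2 weakest classes. GC content can affect amplification of a library, and its part in the shift was not tested.

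**Figure D3:**
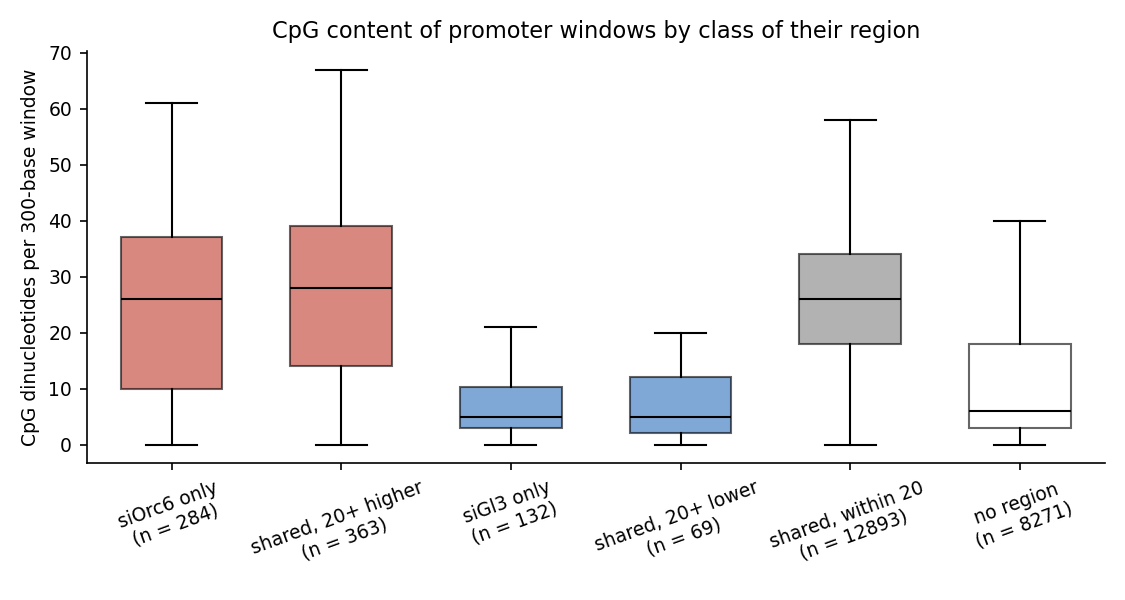
CG dinucleotides per 300-base promoter window by the kind of region that holds the window (boxes span the quartiles, lines mark the medians, whiskers reach 1.5 times the quartile range): red, siOrc6-only or 20 or more points higher in siOrc6; blue, siGl3-only or 20 or more points lower; grey, shared within 20 points; white, no region. The red medians are 26 and 28 and the blue medians both 5.

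Short motifs were counted in the same windows on both strands. The GC box GGGCGG, bound by SP1-like factors, was in 64.8% of siOrc6-only and 71.9% of stronger windows, against 32.6% of siGl3-only and 37.7% of weaker windows, with 56.3% among all windows. The AP-1 motif TGANTCA, bound by FOS and JUN proteins, was in 5.28% of siOrc6-only and 6.34% of stronger windows, against 17.4% of siGl3-only (23 of 132) and 14.5% of weaker windows (10 of 69), with 6.16% among all. The TATA box TATAAA was in 5.99% and 6.89% on the siOrc6 side, against 10.6% and 13.04% on the siGl3 side, with 9.49% among all. The ETS motif CCGGAAG was in 3.17% of siOrc6-only windows, 9.37% of stronger windows, 5.30% of siGl3-only windows and 10.1% of weaker windows, with 12.8% among all, so that it was scarce in all 4 kinds. The NRF1 half-site TGCGCA was in 6.34% and 8.82% on the siOrc6 side, against 3.03% and 0 on the siGl3 side, with 9.84% among all. Of the printed windows, those of LDLRAD4, PIP4K2A and ZNF385B held a GC box and those of ENTPD1 and MRGPRX4 a TATA box. The CCAAT box CCAAT and the E2F motif TTTNGCGC gave no common direction or few matches. CCAAT was in 21.5% of siOrc6-only and 30.6% of stronger windows, against 34.8% of siGl3-only and 26.1% of weaker windows, with 34.7% among all. The E2F motif was in 2.46% of siOrc6-only and 3.31% of stronger windows, against 0.76% of siGl3-only and 0 of weaker windows, with 2.22% among all. The GC box holds a CG dinucleotide, as do the ETS, NRF1 and E2F motifs, and TGCGCA and TTTNGCGC share the letters GCGC, so these counts are not independent of CG content. A match is a match of letters and not a bound site.

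Single genes showed how large the differences at a start could be. The PIP4K2A start (a kinase of phosphatidylinositol 5-phosphate) lay in a region of 1342 bp at chr10:22713669-22715010, at percentile 54.9 in siOrc6 and absent from siGl3. With H2O2 it was at percentile 69.2 in siOrc6 and 43.9 in siGl3. MTCL3 had its start in a siOrc6-only region at percentile 52.1, and with H2O2 at 53.2 in siOrc6 and 0.93 in siGl3. GUCY1A1, a subunit of the soluble guanylate cyclase, had one at 53.6, and with H2O2 at 59.6 in siOrc6 and 39.3 in siGl3. NTSR1, the neurotensin receptor, had one at 54.3, and with H2O2 at 57.0 in siOrc6 and 49.2 in siGl3. In KLHL2, an adaptor of cullin ubiquitin ligases, the siOrc6-only region at 54.8 did not repeat, with 38.2 in siOrc6 and 44.5 in siGl3 under H2O2. For LDLRAD4, a regulator of TGF-beta signalling, the siOrc6-only region (percentile 59.2) was not the strongest at the gene's starts: another start stood at 85.7 in siOrc6 and 83.8 in siGl3. With H2O2 the LDLRAD4 region was shared, at 85.9 in siOrc6 and 82.3 in siGl3. ABLIM1, an actin-binding protein, and SCD5, a fatty acid desaturase, likewise had a stronger region elsewhere, and their siOrc6-only regions were 4.14 and 29.3 points higher in siOrc6 with H2O2.

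Among shared regions the largest gains at starts began from weak siGl3 peaks. CMKLR2, a receptor of chemerin, stood at percentile 59.0 in siOrc6 and 5.54 in siGl3, and with H2O2 it was at 37.1 in siOrc6 and absent from siGl3. ZNF385B, a zinc-finger gene, stood at 60.3 in siOrc6 and 9.62 in siGl3, and with H2O2 at 70.2 in siOrc6 and 72.0 in siGl3. SIAH1, a ubiquitin ligase, had a region at 59.8 in siOrc6 and 6.25 in siGl3, and with H2O2 at 85.9 in siOrc6 and 44.2 in siGl3. The strongest untreated region of SIAH1 stood at 79.0 in siOrc6 and 64.2 in siGl3. DCAKD and ARHGAP19 gained at secondary starts by 58.2 and 57.9 points, while their strongest regions stood at 98.1 and 97.0 in siOrc6 and 98.0 and 97.5 in siGl3. With H2O2 the DCAKD gain was 1.86 points, and the ARHGAP19 region stood at 47.3 in siOrc6 and was absent from siGl3. The largest gain, 62.9 points at CCND1 (cyclin D1, which drives entry into S phase), lay beyond the gene's end of higher coordinate, at chr11:69655028-69656541. It was 2.09 points with H2O2, and the strongest region of CCND1 stood at 86.9 in siOrc6 and 87.0 in siGl3 untreated. KRT81 (a hair keratin) gained 54.6 points beside an annotated end, and H2AC15, a histone gene, 52.9 points beside its start. With H2O2 these gains were 22.4 and 20.2 points. Untreated, the strongest region of KRT81 stood at 94.2 in siOrc6 and 85.9 in siGl3, and that of H2AC15 at 91.7 in siOrc6 and 89.1 in siGl3.

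Losses at starts were few, and several lay at secondary starts or at an end of genes placed by both ends. SLC4A3, an anion exchanger, had a siGl3-only region of 810 bp at chr2:219630250-219631059, absent from siOrc6 and at percentile 52.9 in siGl3, and with H2O2 at 20.1 in siOrc6 and 46.0 in siGl3. CRB2, a polarity protein, stood at 11.8 in siOrc6 and 60.7 in siGl3, and with H2O2 it was absent from siOrc6 and at 65.5 in siGl3. ENTPD1, the ectonucleotidase CD39, stood at 2.31 in siOrc6 and 58.9 in siGl3 at an inner start, while its strongest start stood at 94.2 in siOrc6 and 94.96 in siGl3. With H2O2 the inner start of ENTPD1 stood at 3.97 in siOrc6 and 38.6 in siGl3. CORO2B, an actin-binding coronin, lost an inner start listed at 60.99 in siGl3, while its strongest stood at 93.4 in siOrc6 and 99.3 in siGl3. MRGPRX4, a receptor of itch neurons, stood at 2.99 in siOrc6 and 52.2 in siGl3 at its start, beside a stronger region at 58.1 in siOrc6 and 71.3 in siGl3. With H2O2 the inner CORO2B start and the MRGPRX4 start were absent from siOrc6 and stood at 21.7 and 26.9 in siGl3. The most extreme loss at a start was 60.2 points at HHATL, while the strongest region of that gene stood at 76.5 in siOrc6 and 79.3 in siGl3. With H2O2 the HHATL loss was 35.2 points. MGAT4B, a glycosyltransferase, lost 53.7 points at one start while another stood higher in siOrc6, at 73.5 against 32.4 in siGl3. With H2O2 the first of these MGAT4B starts stood at 65.9 in siOrc6 and 77.2 in siGl3. Other losses over 50 points were beside an annotated end of FBXL16, SCRT1 and PRSS22, where the start was not known. With H2O2 the FBXL16 and PRSS22 regions had shifts of −22.9 and −27.3 points, while the SCRT1 region was 9.29 points higher in siOrc6. BRINP2, GPIHBP1 (which carries lipoprotein lipase), ADRA2B (an adrenergic receptor) and C8orf90 had siGl3-only regions at an end, at percentiles between 53.5 and 75.6 in siGl3, and LOC124909439 one at 52.8 at a start. With H2O2 those of BRINP2 and C8orf90 were siGl3-only again, and the other 3 were in both lists and weaker in siOrc6.

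Most genes kept an open start under both siRNAs. Taking each protein-coding gene by the strongest region at its starts, 14011 of 19974 genes had a region. Of these 261 had it in siOrc6 only (1.86%) and 203 in siGl3 only (1.45%). Of the 13547 with a shared region, 349 were 20 or more points higher in siOrc6 (2.58%), 130 were 20 or more points lower (0.960%) and 8449 were higher by any amount (62.4%). The median shift over these genes was 0.44 points. The 22 gene lists below are read beside these values, and none was tested.

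Replication genes kept strong starts under both siRNAs. ORC6 itself stood at 99.3 in siOrc6 and 99.6 in siGl3. The siRNA targets the transcript, and the peak therefore says nothing of knockdown efficiency. ORC1 to ORC5, the other origin subunits, shifted by between −0.67 and 1.32 points. All 28 genes of origin recognition and licensing had a shared region, with a median shift of 0.28 points and 19 higher. CDT1, which brings MCM to origins, shifted most, at 84.5 in siOrc6 and 75.2 in siGl3, and MTBP, a partner of the origin-firing factor Treslin, was lowest at 72.1 in siOrc6 and 77.6 in siGl3. All 35 replication fork genes were shared, with a median of 0.63 and 22 higher. CHAF1B, a subunit of the chromatin assembly factor that deposits histones behind the fork, was the one past 20 points, at 75.5 in siOrc6 and 55.2 in siGl3, and its region was 2.06 times as wide in siOrc6. With H2O2 CHAF1B shifted by 5.33 points.

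Replication-dependent histone genes, which supply histones in S phase, were mostly higher in siOrc6. Of 59 genes, 37 had a region, in 24 distinct regions since neighbours share promoters. Of 36 genes in shared regions, 31 were higher, with a median shift of 1.83 points and a median width ratio of 1.16, against 0.44 points and 1.05 over all genes. By the strongest region of each gene none reached 20 points; the region beside H2AC15 described above was not its strongest. H2BC17 stood at 36.6 in siOrc6 and 17.4 in siGl3, H4C3 at 84.0 in siOrc6 and 65.8 in siGl3, and H2AC13 with H2BC13 at 85.7 in siOrc6 and 75.5 in siGl3 with a region 2.32 times as wide. Histone genes resemble each other closely, and how reads matching several of them were counted was not stated in the notes used. H3C2 with H2AC4 were lower, at 94.3 in siOrc6 and 97.7 in siGl3. H4C12 had a siOrc6-only region at 8.08. In the H2O2 lists the same histone regions had a median shift of −0.19 points over 35 genes. The histone median lay between 0.31 and 4.58 under 4 other rankings or windows.

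Genes of chromatin remodellers outside ISWI had a median shift of 2.24 points, with 20 of 25 higher and 3 past 20 points. HELLS, a remodeller needed for DNA methylation, stood at 52.5 in siOrc6 and 15.99 in siGl3, and its region was 3.30 times as wide in siOrc6. ARID1B, a subunit of SWI/SNF complexes, stood at 74.6 in siOrc6 and 47.7 in siGl3, and CHD7, a remodeller of enhancers, at 50.0 in siOrc6 and 26.7 in siGl3. With H2O2 the shifts of HELLS, ARID1B and CHD7 were 11.7, 7.61 and −2.13 points. SMARCC1, a core SWI/SNF subunit, was among the lower ones at 92.2 in siOrc6 and 93.3 in siGl3. Under the other rankings the median of this list fell as low as 0.15. With H2O2 its median was −0.01.

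The ISWI list had 13 of 14 genes with a region and a median shift of 0.30, with 6 of 12 higher. SMARCA5, the main ISWI ATPase, stood at 94.3 in siOrc6 and 93.7 in siGl3. BAZ1A, its partner in the ACF complex, stood at 95.9 in siOrc6 and 88.0 in siGl3 with a region 1.52 times as wide, and RBBP7, a histone-binding subunit, at 75.2 in siOrc6 and 57.7 in siGl3. SMARCA1, the other ISWI ATPase, had 2 weak regions at its start, of which one stood at 13.3 in siOrc6 and 7.17 in siGl3 and the other at 4.63 in siOrc6 with no siGl3 peak. CECR2, a bromodomain partner of ISWI ATPases, had a siGl3-only region at 17.6.

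Large neuronal genes of axon guidance and synapses had the highest median of the lists, 4.14 points, with 16 of 21 higher and 3 past 20 points. CSMD1 stood at 59.7 in siOrc6 and 25.1 in siGl3, LRP1B (a giant lipoprotein receptor) at 49.2 in siOrc6 and 15.5 in siGl3, and UNC5D, a netrin receptor, at 59.3 in siOrc6 and 31.5 in siGl3. With H2O2 CSMD1 was siOrc6-only at 33.4, and the shifts of LRP1B and UNC5D were 29.7 and 3.39 points. The list was weaker than most: its median percentile was 84.1 in siOrc6 and 77.7 in siGl3, while over all genes it was 89.8 in siOrc6 and 88.8 in siGl3. The median stayed between 2.40 and 5.78 under the other rankings and windows and was 3.50 with H2O2. The 16 neuronal marker genes, another list, had a median of 0.12 over 10 shared regions.

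Among TGF-beta and matrix genes, 4 were past 20 points. COL4A1 and COL4A2, which encode basement membrane collagens from a common start region, stood at 80.3 in siOrc6 and 43.4 in siGl3, COL6A2 at 75.4 in siOrc6 and 44.6 in siGl3, and LTBP2, which binds elastic fibres, at 84.8 in siOrc6 and 61.3 in siGl3. COL1A2, which encodes a chain of type I collagen, was lower, at 17.6 in siOrc6 and 34.0 in siGl3, but higher with H2O2, at 27.1 in siOrc6 and 12.8 in siGl3. The H2O2 shifts were 1.79 points at COL4A1 and COL4A2, 14.9 at COL6A2 and 15.998 at LTBP2. The median of the list was 0.51, near that of all genes. Among interferon-stimulated genes, IFI44L stood at 53.02 in siOrc6 and 19.1 in siGl3 and IFIT2 at 47.1 in siOrc6 and 25.6 in siGl3, while OASL and IFIH1 were lower by 8.21 and 7.15 points; the median was 0.19. With H2O2 IFI44L had no peak under either siRNA and IFIT2 shifted by 11.6 points. By strongest region, no member of any list was 20 or more points lower untreated.

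The other lists lay close to all genes. Medians were 0.66 for 71 ribosomal protein genes, 0.59 for E2F and G1/S genes, 0.43 for base excision repair, 0.38 for p53 targets, 0.36 for YAP/TEAD targets, 0.33 for mismatch repair, 0.23 for G2/M genes, 0.18 for NRF2 targets and 0.12 for heat shock genes. The list of immediate-early genes and members of AP-1 had a median of −0.01 with 11 of 25 higher. The starts of these genes ranked at a median of 97.2 in siOrc6 and 97.6 in siGl3, where little movement is possible. The sign of the mismatch repair median turned when peaks were ranked by signal per base (−0.38), and that of the immediate-early median turned in 2 of 4 alternatives.

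Markers of cell lineage were read for the label. Of 20 osteoblast and mesenchymal genes 14 had a region at a start, among them RUNX2 (66.8 in siOrc6 and 62.0 in siGl3), SP7 (92.4 in siOrc6 and 90.2 in siGl3), COL1A1 and VIM, while ALPL, IBSP, BMP2, DLX5, CDH11 and TWIST1 had none. Blood markers had a region in 6 of 14 genes and epithelial markers in 7 of 12. Among those without one were PTPRC, MS4A1, HBB and GATA1 (blood) and CDH1, ESRP1 and GRHL2 (epithelial), and those with one are not named here. Over all protein-coding genes 14011 of 19974 had a region. The osteoblast share was thus near that of all genes and is no sign of lineage. The median shifts were 0.68 for osteoblast, −1.10 for blood and −2.74 for epithelial markers. The osteoblast median turned to −0.08 when peaks were ranked by the eighth column, and the blood median, over 6 genes, turned in 2 of 4 alternatives and reached 10.5. An open start is not expression.

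Noncoding genes were read in the same way. Of 263 regions within 1 kb of an annotated tRNA gene, 242 were shared, 21 were siOrc6-only (7.98%, against 9.26% of all regions) and 0 were siGl3-only (against 12.8% of all regions), with a median shift of 0.49 points over the shared ones. Regions at lncRNA genes, from 1 kb before to 1 kb after the gene, numbered 24592 and had a median shift of −0.20.

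Outside gene starts the widest shifts lay far from genes or inside them, and the 2 widest in each direction are given. The widest gain, 73.0 points, was at chrX:58198288-58199474, between genes, at 86.7 in siOrc6 and 13.7 in siGl3. With H2O2 that region stood at 70.9 in siOrc6 and was absent from siGl3. A region in THBS1, which encodes the matrix protein thrombospondin 1, stood at 78.7 in siOrc6 and 6.002 in siGl3 (chr15:39587231-39589240), while the gene's start stood at 99.97 in siOrc6 and 99.92 in siGl3. A region in LGR6, an R-spondin receptor, stood at 0.26 in siOrc6 and 76.4 in siGl3 (chr1:202221871-202222810). With H2O2 the THBS1 region stood at 35.2 in siOrc6 and 13.3 in siGl3, and the LGR6 region at 46.2 in siOrc6 and 77.4 in siGl3. The widest shift of all, 81.1 points lower, was at chr1:20262705-20263532, at 8.46 in siOrc6 and 89.5 in siGl3. With H2O2 it stood at 69.4 in siOrc6 and 86.2 in siGl3.

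The 2 directions were spread differently over the genome. siOrc6-only regions made up 14.9% of regions on chromosome X and 12.3% on chromosomes 4 and 13, against 7.19% on chromosome 22. siGl3-only regions made up 17.6% of regions on chromosome 22, 14.8% on 17 and 14.6% on 7, against 10.4% on X and 13 and 9.77% on 21. The median shift of shared regions was 0.84 points on X and 0.22 on 13, against −1.22 on chromosome 8 and −1.02 on 22. The share of siOrc6-only regions fell with gene density, from 13.1% in 1 Mb bins with no protein-coding gene to 7.19% in bins with over 20, while the siGl3-only share stayed between 11.95% and 13.8%. Outside gene starts the median shift was between −0.99 and −1.54 in every density class. Copy number of U2OS chromosomes was not analysed here.

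Some 1 Mb bins and genes held many regions found under 1 siRNA. Over all regions 9.26% were siOrc6-only and 12.8% siGl3-only, and the median bin held 4 of each among 37 regions. On chromosome 7 between 1 and 2 Mb, 81 of 312 regions were siGl3-only (26.0%), 16 were siOrc6-only and the median shift was −10.5 points. On chromosome 8 between 141 and 142 Mb, 63 of 165 were siGl3-only (38.2%) and 1 was siOrc6-only, and between 142 and 143 Mb 63 of 242 were siGl3-only and 7 siOrc6-only. The bins with the most siOrc6-only regions were less one-sided, except for that of the chromosome 19 stretch described below: 19 of 145 on chromosome 9 between 136 and 137 Mb, with 18 siGl3-only, and 18 of 168 on chromosome 17 between 81 and 82 Mb, with 29 siGl3-only. MAD1L1, a spindle checkpoint gene on chromosome 7, held 26 siGl3-only and 3 siOrc6-only regions of 89 within the gene and 5 kb on each side, with a median shift of −12.5 in the shared ones. RBFOX3, a neuronal splicing factor, held 25 siGl3-only and 1 siOrc6-only of 72. COL5A2, a fibrillar collagen gene, went the other way with 11 siOrc6-only and 1 siGl3-only of 29. ASIC2, an acid-sensing ion channel, held both kinds, 13 siOrc6-only and 17 siGl3-only of 85, as did RBFOX1, a splicing factor, with 11 siOrc6-only and 20 siGl3-only of 119. The shares in RBFOX1, 9.24% and 16.8%, were near those of all regions, as was the 10.7% of siOrc6-only regions in the chromosome 17 bin. NRXN3, a synaptic adhesion gene, held 11 siOrc6-only and 6 siGl3-only of 64. The longest run of consecutive siGl3-only regions, 8, was at chr22:23089798-23109985.

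A gene-poor stretch of chromosome 19 gathered siOrc6-only regions. Over 231.8 kb at chr19:27634626-27866433, 17 of 27 regions were siOrc6-only, 9 were shared and 1 was siGl3-only. The longest run of consecutive siOrc6-only regions, 10, was at chr19:27689595-27775150 inside it. These regions were not all weak: their percentiles in siOrc6 reached 87.8, with regions at 76.0, 75.4 and 71.8, and none had a siGl3 peak. Of the 9 shared regions 7 were higher in siOrc6, with a median shift of 18.5 points. A region at LINC00662, a long noncoding RNA gene, stood at 99.6 in siOrc6 and 99.7 in siGl3. With H2O2, 10 of the 17 siOrc6-only regions had a siOrc6 peak and 0 had a siGl3 peak. The stretch holds no protein-coding gene and 4 lncRNA genes. The stretch was picked after its values were seen. The next longest run of siOrc6-only regions, 6, was at chrX:58203709-62517677, and a run of 5 was at chrX:58052298-58116557. The widest gain described above, at chrX:58198288-58199474, lay between those runs. How well reads can be placed in these stretches was not tested.

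**Figure D4:**
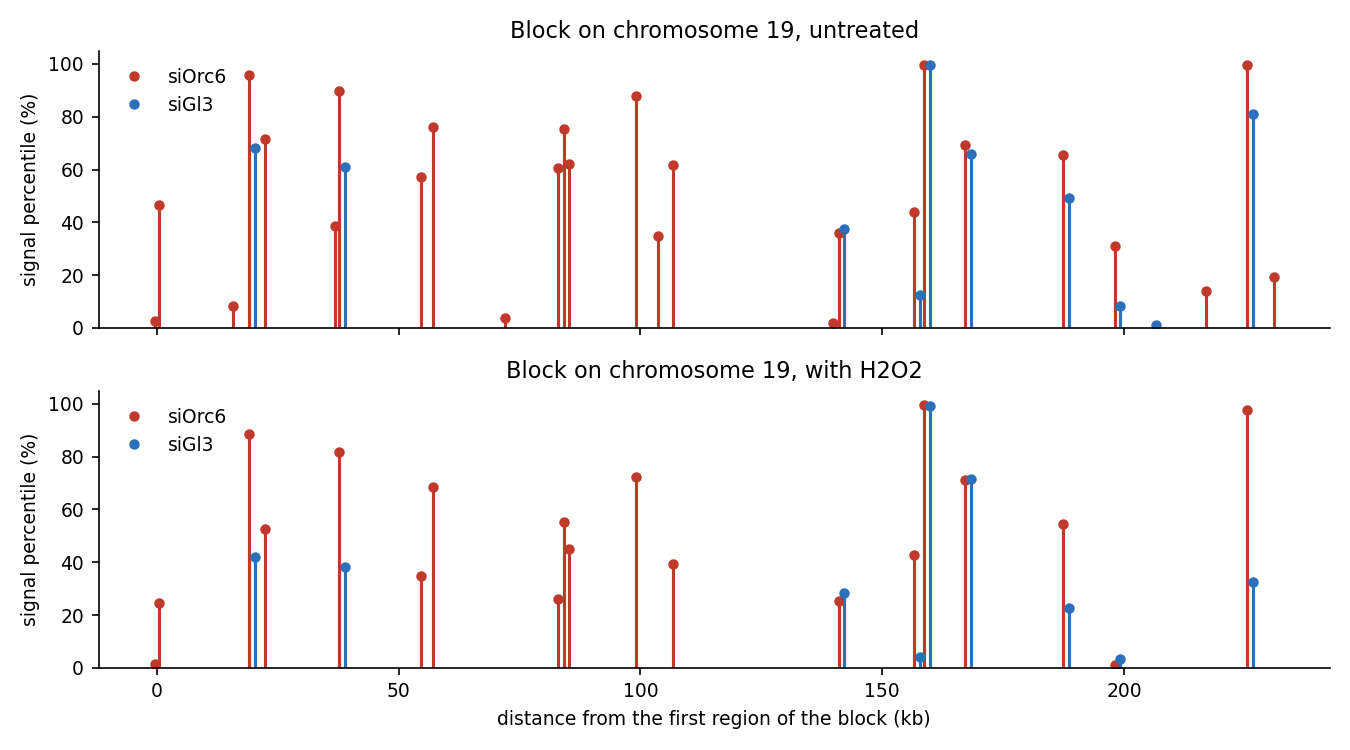
Signal percentile of each region of the chromosome 19 stretch in siOrc6 (red) and siGl3 (blue), by distance from the first region in kb, in the untreated lists (top) and the H2O2 lists (bottom); a missing stem means no peak. Of 27 regions, 17 have only a red stem in the untreated lists, and the region at LINC00662 is at percentile 99.36 or higher in all 4 lists.

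The H2O2 lists, made from other libraries of the same batches, gave the same comparison a second time. In them 8.13% of regions were siOrc6-only and 12.5% siGl3-only. Of untreated siOrc6-only regions, 18.7% were again siOrc6-only with H2O2 (interval 18.01% to 19.4%), 4.77% were siGl3-only, 16.8% were in both lists and 59.7% in neither. Of untreated siGl3-only regions, 30.6% were again siGl3-only (29.9% to 31.3%), 3.07% were siOrc6-only, 17.2% were in both and 49.1% in neither. Many regions of a single untreated list were thus not listed at all with H2O2, and those listed once more under 1 siRNA were mostly so under the same one. Regions siOrc6-only in both treatments numbered 2146, and regions siGl3-only in both 4857.

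Shifts of shared regions leaned the same way in both treatments. Over the 81462 regions in all 4 lists, Pearson's r between the untreated and the H2O2 shift was 0.55 and Spearman's rank correlation 0.54, across regions that share libraries and batches. Regions 20 or more points higher in untreated siOrc6 (2442 of those in all lists) had a median H2O2 shift of 9.33 points and were higher in 78.1% of cases. Regions 20 or more points lower (4859) had a median H2O2 shift of −17.5 and were lower in 91.2% of cases. Over all 81462 regions the median H2O2 shift was −0.57, with 43.3% higher and 56.7% lower. Shifts of 20 points in opposite directions occurred at 85 regions. In the H2O2 lists, 3.16% of shared regions were 20 or more points higher and 6.34% lower. Between the 20th and 30th percentiles of the untreated lists, 472 of 622 gene-start regions and 5329 of 9328 others were in both H2O2 lists. Over these the median H2O2 shift was 2.48 points at gene starts and −2.46 elsewhere. The untreated medians of 7.67 and −1.67 were over the full classes, so the 2 treatments are not compared over the same regions.

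**Figure D5:**
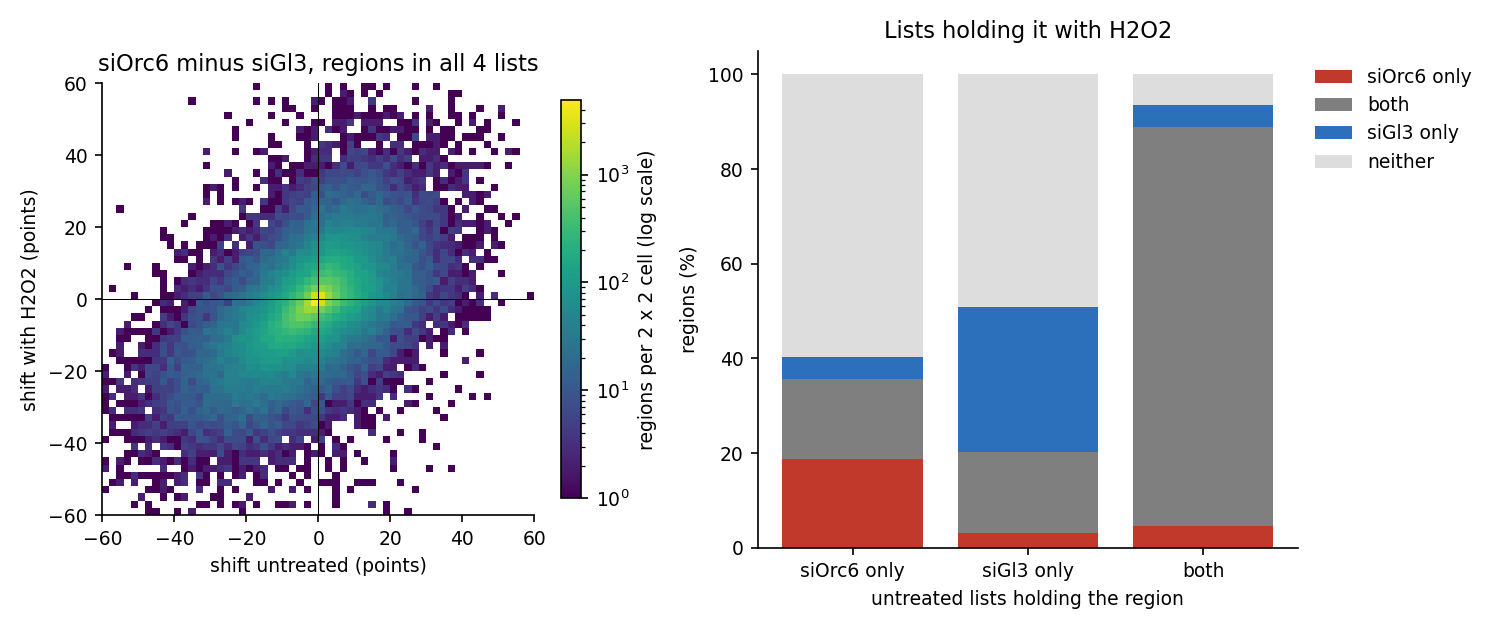
Left, siOrc6 minus siGl3 percentile with H2O2 (vertical) against the same untreated (horizontal) for 81462 regions in all 4 lists, coloured by number per cell on a log scale. Right, where untreated siOrc6-only, siGl3-only and shared regions were listed with H2O2: 18.7% of the first were again in siOrc6 only and 30.6% of the second again in siGl3 only.

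The authors' deposited lists of changed regions, read as description, mostly had the direction of the peak lists at the regions they held. The authors' lists held more regions higher in siOrc6 than lower. In the full peak lists the balance was the other way, with 4.14% of shared regions called higher and 7.07% lower. With peak lists of equal length it was not, with 4934 called higher and 4691 lower. The authors' deposited table of regions higher in siOrc6 held 7517 entries, at 9118 of the regions described here (7.36%). Of these 2744 were siOrc6-only, 43 siGl3-only and 6331 shared, and the shared ones had a median shift of 12.2 points. The authors' deposited table of regions lower in siOrc6 held 5698 entries at 6180 regions (4.99%), of which 3 were siOrc6-only, 3537 siGl3-only and 2640 shared with a median shift of −28.8. The overlap was partial: of shared regions 20 or more points higher here, 45.0% were in the authors' deposited table of higher regions, and of those 20 or more points lower, 29.0% were in that of lower regions. At gene starts, 9.45% of regions were in the authors' deposited table of higher regions and 0.738% in that of lower ones. Elsewhere these were 7.04% and 5.66%. In the full peak lists the calls here leaned the other way elsewhere, with 4.11% of shared regions higher and 8.07% lower. With lists of equal length the median shift elsewhere was 0.006. By strongest region, 11 of 37 histone genes were in the authors' deposited table of higher regions, against 8.15% of all genes, and 0 were in that of lower regions, against 0.571% of all genes. These tables and the peak lists come from the same libraries.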

How the data were processed

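The tools Genrich, edgeR, Bowtie2, SAMtools, Picard, deepTools and bcl2fastq (2.20) and the build hg38 stand in the submitters' processing notes. What each did, in which order and with which thresholds, and any shift of cut positions for the transposase, are points not given in the sources used here. Of the columns in the deposited lists of peaks, the seventh is the peak signal (lowest value just above 200.0 in every list), and the eighth and ninth are −log10 p and −log10 q values, per the file format. The lists of changed regions hold positions and serial numbers alone, and served as description only.

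Peaks on chromosomes 1 to 22 and X were joined where they overlapped or touched, and 168 siOrc6 and 147 siGl3 peaks on other sequences were left out. Starts came from RefSeq (GRCh38.p14, the assembly of hg38) for 15812 protein-coding genes, and 4162 others were placed by both annotated ends. Gene lists matched 581 of 582 symbols. Members and lists were chosen with earlier results of these data known. Named genes are the ORC subunits, SMARCA5, SMARCA1, BAZ1A and BAZ1B, the 8 most extreme at starts in each of 4 kinds, up to 4 members per list and the leading gene spans and 1 Mb bins; 1 gene that this rule names is not reported here. Others named, and the regions with the widest shifts away from starts, were chosen after their values were seen. The joining and ranking were tested on simulated lists. Alternatives were stricter peaks, lists of equal length, other joining, other rankings, a 3 kb window and, added after seeing the data, other gene positions. Scripts used Python 3.11.15 with pandas 2.3.3, numpy 2.4.6, matplotlib 3.10.9 and scipy 1.17.1.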

Additional observations from a re-analysis of the deposited data

Results flagged for a closer look

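The shift differed in sign between treatments at 5 genes. These came from the genes named for extreme starts and the members of the gene lists by their strongest region. The shift there was at least 20 points in either treatment or at least 10 in both. At ZNF385B and CHD7 the H2O2 shift was small. It lay within the H2O2 quartiles, −4.65 and 3.07, of shared regions that shifted by less than 20 points untreated. No difference between treatments was tested, and each value rests on 1 list per condition. At an annotated end of SCRT1, a neural transcriptional repressor, the siOrc6 minus siGl3 shift was −52.4 points untreated (21.6 in siOrc6 and 74.0 in siGl3) and 9.29 points with H2O2 (69.5 in siOrc6 and 60.2 in siGl3). At the ZNF385B start it was 50.7 points untreated (60.3 in siOrc6 and 9.62 in siGl3) and −1.81 points with H2O2 (70.2 in siOrc6 and 72.0 in siGl3). At CHD7 it was 23.3 points untreated (50.0 in siOrc6 and 26.7 in siGl3) and −2.13 points with H2O2 (67.0 in siOrc6 and 69.1 in siGl3). At COL1A2 it was −16.4 points untreated (17.6 in siOrc6 and 34.0 in siGl3) and 14.3 points with H2O2 (27.1 in siOrc6 and 12.8 in siGl3). At GAD1, which encodes an enzyme of GABA synthesis, it was −7.63 points untreated (74.0 in siOrc6 and 81.6 in siGl3) and 20.8 points with H2O2 (78.1 in siOrc6 and 57.3 in siGl3).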

How the results depend on the processing

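No paired analysis was possible because each condition has 1 list made from both batches, and for the same reason no library could be left out. Below, the 3 medians of the shift are given in the order all shared regions, gene starts, elsewhere, and the shares at gene starts in the order siOrc6-only, siGl3-only, shared. With peaks of signal at least 400, the values that moved were 10181 siGl3-only regions, 4507 lower calls, medians of −0.094, 1.07 and −0.88, shares of 10.1% (siOrc6-only) and 18.7% (shared), a median width ratio of 1.016 and 20.9% of siOrc6-only regions again so with H2O2. With the 100000 strongest peaks of each list the medians were 0.44, 1.35 and 0.006, the shares 3.09% (siGl3-only) and 16.8% (shared) and the width ratio 1.011. With peaks joined up to 500 bp apart the medians were −0.55, 0.49 and −1.34, the shares 4.79%, 2.79% and 15.1%, and the width ratio at gene starts 1.056. Ranking by signal per base gave 8375 higher and 12341 lower calls and medians of −0.37, 2.32 and −1.35. Ranking by the eighth column gave medians of −0.37 and 1.18, ranking among shared regions 0.22, 1.35 and −0.26, and the summed signal −0.29, 0.78 and −1.07. The shares were 16.2%, 9.58% and 20.8% with a 3 kb window, and, both chosen after seeing the data, 7.31%, 2.26% and 12.7% with the promoter table alone and 4.71% (siGl3-only) with both ends of every gene. In all of these the median at gene starts stayed above that elsewhere and the siOrc6-only share above the siGl3-only share. The other 33 summary values stayed within their interval or within 1.5 times the reported count. Of 143 values for gene lists, widths and chromosomes, 97 did. Depth is unknown, and the causes of these changes were not tested.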
